A study of Mus musculus with 464 samples.

Results

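The dorsoventral progenitor factors are 10 transcription factor genes, Pax6, Irx3, Pax3, Pax7, Olig3, Dbx1, Dbx2, Nkx6-1, Nkx6-2 and Olig2, that were chosen by name from the 21973 genes of a single-cell expression table. They were described across all distinct single cells of the series. The cells came from the mouse embryonic stem cell line R1, grown in medium with 15% serum replacement and with LIF, a cytokine that holds stem cells undifferentiated, at 1000 U/ml. Embryoid bodies, which are floating aggregates of differentiating stem cells, were formed in hanging drops over 48 hours and then received retinoic acid for 4 days, at a dose that the labels state as 0.5 mM. Capture was on the Fluidigm C1 system, and full-length cDNA was made with SMART-Seq V4. All cells carry the same label, with no untreated cells and no second culture named, so they form 1 sample in which cells are not replicates. Shares of cells are given with exact Clopper-Pearson 95% intervals that cover counting error only, since reads copied by PCR without molecular identifiers are not independent molecules, and no test between groups of cells was made. The design text gives the aim of the series as clustering such data jointly with chromatin accessibility data, which were not analysed here.

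In the embryonic neural tube, hedgehog protein from the ventral midline and BMP and Wnt proteins from the dorsal midline divide the progenitors into bands along the dorsoventral axis, each with its own combination of homeodomain and bHLH factors. Class I factors are held down by hedgehog signalling, class II factors need it, and factors of adjoining bands repress each other, so that neighbouring bands are sharply separated. Retinoic acid from the flanking somites is known to promote class I genes such as Pax6, Irx3, Dbx1 and Dbx2. In this list Pax6, Irx3, Pax3, Pax7, Dbx1 and Dbx2 are class I genes, Nkx6-1, Nkx6-2 and Olig2 are class II genes, and Olig3 marks the dorsal progenitor bands.

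The table has 1 column per sample, and 6 columns were removed for having under 2000 genes above 0 or over 20% of their summed TPM in mitochondrial genes. Among the rest were 55 pairs of columns from different capture numbers whose values nearly coincided, with Pearson r of log2(TPM + 1) between 0.946 and 0.990, while the highest r of any other pair was 0.917. Each pair was counted as 1 cell by leaving out its column of set 2, where sets 1 and 2 are the 2 series of column names in the table. Most capture numbers occur in both sets, but in 0 of the 55 pairs did the numbers match. Cells had a median of 6740 genes above 0 (range 2059 to 10256), and the medians of the sets were 6742.5 and 6721. The values are TPM, a unit scaled by transcript length, so that levels can be compared between genes. Detection of a gene means a value of 1 TPM or more. How many reads lie behind each cell is not known from these values.

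Near-copies showed how far detection repeated. Over the 10 genes and 55 pairs there were 550 comparisons, of which 19 had the gene in 1 column alone. These were 8.48% of the comparisons in which either column had the gene. The highest value of a gene that its near-copy lacked was 14.8 TPM for Pax6, and for every other gene with such a case it lay between 1.37 TPM for Pax3 and 3.93 TPM for Irx3.

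Cells were put in classes by counting markers, and none of the 10 genes was among the markers used. A cell with at least 6 of 12 endoderm genes such as Gata4 and Sox17 was called endoderm-marker, then a cell with at least 8 of 15 neuron genes such as Tubb3 and Elavl3 was called neuron-marker, and then a cell with at least 8 of 15 neural progenitor genes such as Sox2 and Nes was called progenitor-marker. Endoderm-marker cells made up 28.3% (interval 23.9 to 33) of the distinct cells, neuron-marker cells 37.5% (32.7 to 42.4) and progenitor-marker cells 30.8% (26.3 to 35.5), and 14 cells were unclassed. The classes are ranges of a count and not cell types. Of the neuron-marker cells 99, and of the endoderm-marker cells 43, also held 8 or more progenitor genes, and 18 progenitor-marker cells held 3 or more endoderm genes. Median genes above 0 were 6778 in endoderm-marker, 7089 in neuron-marker and 6440 in progenitor-marker cells.

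Every one of the 10 genes was detected in some cells, and 8 of the 10 in at least 10% of all cells. Of the 13582 genes detected in 10 or more cells, 31.3% had a lower share than Pax7, the lowest of the 8. Most of the 13582 genes therefore also reached 10% of cells, and the count is not particular to the members. The order of the shares was Pax6, Irx3, Dbx1, Dbx2, Pax3, Nkx6-1, Nkx6-2, Pax7, Olig2 and Olig3. Neighbours in this order whose intervals overlap are Dbx1, Dbx2 and Pax3, and likewise Nkx6-1, Nkx6-2 and Pax7, and Olig2 and Olig3. By mean level the order was different, with Dbx1 at 78 TPM ahead of Pax6 at 62.6 TPM and all others below 12 TPM. A progenitor-marker cell held a median of 4 of the 10 genes and at most 7, and 1 such cell held none. Neuron-marker cells also had a median of 4, with 5 cells at 0, and endoderm-marker cells had a median of 2, with 31 cells at 0.

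**Figure D1:**
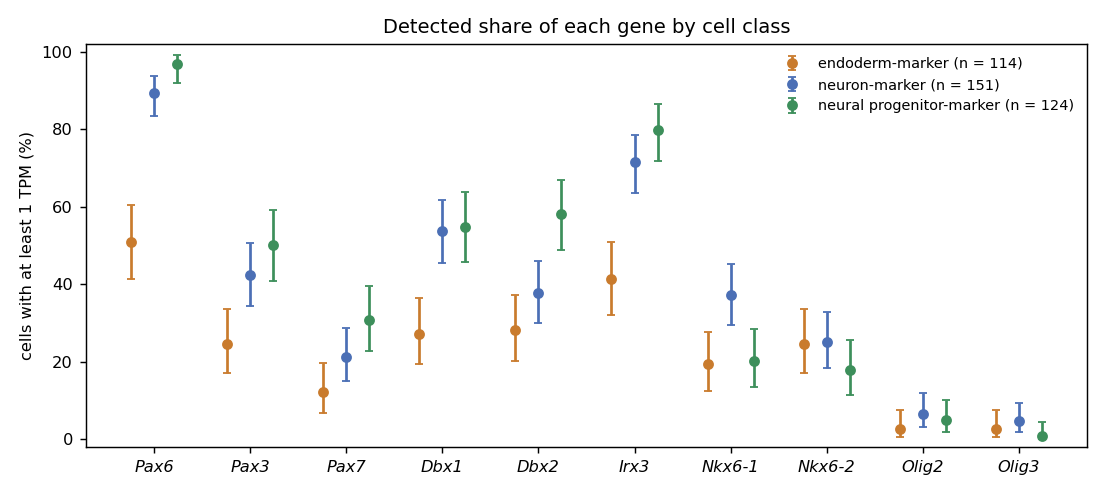
Share of cells with each gene at 1 TPM or more, in percent, in endoderm-marker, neuron-marker and progenitor-marker cells. Points are shares and bars are exact 95% intervals that cover counting error only; Pax6 and Irx3 are the genes seen in most cells of the progenitor-marker class, and Olig2 and Olig3 stay below 7% in each class.

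Pax6, on chromosome 2 (105668896 to 105698410, mm10), encodes a paired-domain factor of most neural tube progenitors outside the most ventral and most dorsal bands. It was detected in 80.4% (76.2 to 84.2) of cells. In detected cells the lowest value was 1.04 TPM, the median 60.1 TPM and the highest 527 TPM. The class shares were 50.9% (41.3 to 60.4) of endoderm-marker cells, 89.4% (83.4 to 93.8) of neuron-marker cells and 96.8% (91.9 to 99.1) of progenitor-marker cells. Pax6 was therefore nearly general in the neural classes, and its low values were concentrated in the endoderm-marker cells, where the mean was 18.6 TPM, against 105.1 TPM in progenitor-marker cells. The mean over all cells was higher than that of 83.6% of the 13582 genes detected in 10 or more cells. Pax6 overlaps Elp4 in the annotation, and the use of strand in the counting is not stated. Reads from the overlapping stretch may therefore not be told apart, and the extent of the overlap was not examined.

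Irx3, on chromosome 8 (91798511 to 91801654), encodes an Iroquois factor that in the neural tube lies dorsal to the motor neuron progenitors and meets Olig2 at its ventral edge. It was detected in 64% (59.1 to 68.7) of cells, with a lowest value of 1.06, a median of 12.7 and a highest value of 101.9 TPM among them. Its shares were 41.2% (32.1 to 50.8) in endoderm-marker, 71.5% (63.6 to 78.6) in neuron-marker and 79.8% (71.7 to 86.5) in progenitor-marker cells. The classes thus stood in the same order as for Pax6, at a lower level throughout. By column set, Irx3 was detected in 70.1% (63.6 to 76) of cells in set 1 and 56.4% (48.8 to 63.8) in set 2, with intervals that overlap narrowly. Its detection also moved with the number of genes seen in a cell, since progenitor-marker cells with Irx3 had a median of 6716 genes and those without it 5641.

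Pax3 and Pax7 encode closely related paired-domain factors of the dorsal neural tube, and Pax3 lies on chromosome 1 (78101267 to 78197136) and Pax7 on chromosome 4 (139737059 to 139833530). The genes are similar in sequence, so reads shared between them are assigned with uncertainty. Pax3 was detected in 160 cells, 39.7% (34.9 to 44.7), at 1.07 to 151.3 TPM with a median of 18.6 TPM. Pax7 was detected in 87 cells, 21.6% (17.7 to 25.9), at 1.01 to 26.4 TPM with a median of 4.63 TPM. Pax7 was thus the rarer and the lower of the pair. For Pax3 the class shares were 24.6% of endoderm-marker (16.98 to 33.5), 42.4% of neuron-marker (34.4 to 50.7) and 50% of progenitor-marker cells (40.9 to 59.1). For Pax7 they were 12.3% (6.88 to 19.7), 21.2% (14.97 to 28.6) and 30.6% (22.7 to 39.6) in the same classes.

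Both dorsal genes were seen more in cells with many genes. Median genes above 0 were 6838 in progenitor-marker cells with Pax3 and 6030 in those without it, and 7104.5 with Pax7 and 6230 without it. When the progenitor-marker cells were split into 3 terciles by that number, Pax3 was detected in 28.6%, 51.2% and 70.7% of the lowest, middle and highest tercile. The Pax7 shares in the same terciles were 16.7%, 21.95% and 53.7%. Pax6 did not follow this pattern, with 97.6%, 95.1% and 97.6%, and Nkx6-1 had 23.8%, 14.6% and 21.95%. Whether gene number sets the share of cells with Pax3 or Pax7 was not tested.

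Pax3 and Pax7 are also genes of neural crest and of somites and muscle, and these cell types were looked for by their markers. In progenitor-marker cells with Pax3, 3 of 10 neural crest genes reached 10% of cells, and 2 of 10 did in cells without it. The summed level of the crest list ranged from 0 to 241.98 TPM (median 80.7) with Pax3 and from 0 to 273.9 TPM (median 53.4) without it, and Ednrb, which neural progenitors also express, was detected in 84.7% of the class. Ets1 and Erbb3 were in no progenitor-marker cell, with Pax3 or without it. Of 11 somite and muscle genes, 1 reached 10% on either side, Tcf15, which was detected in 25% of the class. The median sum was 0 TPM on both sides, and the sums ran up to 257.9 TPM with Pax3 and 80.6 TPM without it. Tbx6, Msgn1 and Myod1 were in 0 of all distinct cells and Myog in 1, so their absence with Pax3 is no contrast. With Pax7, 5 of 10 crest genes reached 10% of the cells against 2 without it, and the median sums were 85.8 and 52.7 TPM (ranges 1.64 to 209.7 and 0 to 273.9 TPM). The part of crest markers in the Pax7 share was not tested.

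Olig3, on chromosome 10 (19356539 to 19358604), encodes a bHLH factor of the most dorsal progenitor bands that is also made in some newborn ventral neurons. It was detected in 11 cells, 2.73% (1.37 to 4.83), at 2.10 to 53.6 TPM with a median of 10.06 TPM. Of these cells 3 were endoderm-marker, 7 neuron-marker and 1 progenitor-marker cells. Olig3 was therefore rarely detected in the progenitor-marker class at this depth, where its single cell held 2.10 TPM. Dbx1 was detected in 9 of the 11 cells, against 5.05 cells from the product of the shares, at 131.5 TPM in the progenitor-marker cell, at 467.3 and 30.8 TPM in endoderm-marker cells and at 8.34, 141.4, 191.25, 211.04, 418.5 and 452.8 TPM in neuron-marker cells. Most Olig3 cells were thus high in Dbx1. Pax3 was detected in 8 of the 11 and Olig2 in 0.

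Dbx1 and Dbx2 encode homeodomain factors of the intermediate progenitor bands, from which V0 interneurons arise in the case of Dbx1. The 250 bases before each gene's start are shown because the genes share the intermediate bands and because the windows differ in the motifs they hold. The sequences are from RefSeq on GRCm38.p6, which is the mm10 build. They lie at chr7:49636836-49637085 for Dbx1 and chr15:95654772-95655021 for Dbx2, both are on the minus strand and are written 5′ to 3′ along the gene, and capitals mark every match on either strand to TAAT (the core of many homeodomain sites), CANNTG (the E-box of bHLH factors) and TATAAA (the TATA box).

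Dbx1: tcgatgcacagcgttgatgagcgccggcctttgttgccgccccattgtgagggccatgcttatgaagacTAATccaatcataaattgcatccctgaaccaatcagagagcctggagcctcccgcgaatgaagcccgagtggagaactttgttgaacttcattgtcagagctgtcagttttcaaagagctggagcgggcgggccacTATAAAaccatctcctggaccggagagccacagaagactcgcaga
Dbx2: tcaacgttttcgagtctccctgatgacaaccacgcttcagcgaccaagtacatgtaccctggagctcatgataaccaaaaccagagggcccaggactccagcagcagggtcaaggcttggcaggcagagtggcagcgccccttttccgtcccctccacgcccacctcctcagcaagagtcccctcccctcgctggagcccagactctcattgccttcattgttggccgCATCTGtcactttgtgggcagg

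The Dbx1 window holds 1 TAAT and 1 TATAAA and no E-box, and the Dbx2 window holds 1 E-box and neither of the others. Of 27025 RefSeq promoter windows of the same length, 55.3% had TAAT, 66.04% CANNTG and 12.97% TATAAA. Of the 9 members with a promoter entry, 4 had TAAT, 3 CANNTG and 3 TATAAA. Pax3 has no entry, and the earlier of the 2 entries of Pax6 was used. A hedgehog effector site, GACCACCCA, was found in 0 of the 9 and in 0.211% of all promoters, and a retinoic acid receptor half-site, AGGTCA, in 0 of the 9 and in 13.8%. These matches describe letters in the window and say nothing of binding.

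Dbx1, on chromosome 7 (49631499 to 49636835), was detected in 45.9% (40.96 to 50.9) of cells. Its levels spread over the widest range of the 10 genes, from 1.03 TPM through a median of 88.9 TPM to 1535 TPM, with quartiles at 25.9 and 231.9 TPM in detected cells. In 86 cells Dbx1 reached 100 TPM, as many as for Pax6, although Pax6 was seen in far more cells. Any value above 0 was found in 52.9% of cells and 5 TPM or more in 41.2%, so that a part of the cells held low values only. In the near-copies Dbx1 was seen by 1 column alone in 7 of 55 pairs, at no more than 2.52 TPM. The class shares were 27.2% (19.3 to 36.3) of endoderm-marker, 53.6% (45.4 to 61.8) of neuron-marker and 54.8% (45.7 to 63.8) of progenitor-marker cells.

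Dbx2, on chromosome 15 (95623563 to 95654771), was detected in 40.2% (35.4 to 45.2) of cells, at 1.56 to 136.7 TPM with a median of 21.06 TPM. Its shares were 28.1% (20.1 to 37.3) in endoderm-marker, 37.7% (29.997 to 45.99) in neuron-marker and 58.1% (48.9 to 66.9) in progenitor-marker cells. Dbx2 was thus concentrated in the progenitor-marker class, and Dbx1 was found as often in neuron-marker cells as in progenitor-marker cells. In the progenitor-marker class 52 cells held both genes, against 39.5 from the product of the shares, a ratio of 1.32 that is inside the bound of 1.5 used for pairs. Dbx2 was detected in 76.5% (64.6 to 85.9) of the cells with Dbx1 and in 35.7% (23.4 to 49.6) of those without it, and its mean was 31.5 TPM with Dbx1 and 11.1 TPM without it. Dbx2 was also the gene whose level followed Dbx1 most closely over the class, with a Pearson r of 0.48 (0.55 in set 1, 0.37 in set 2).

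**Figure D2:**
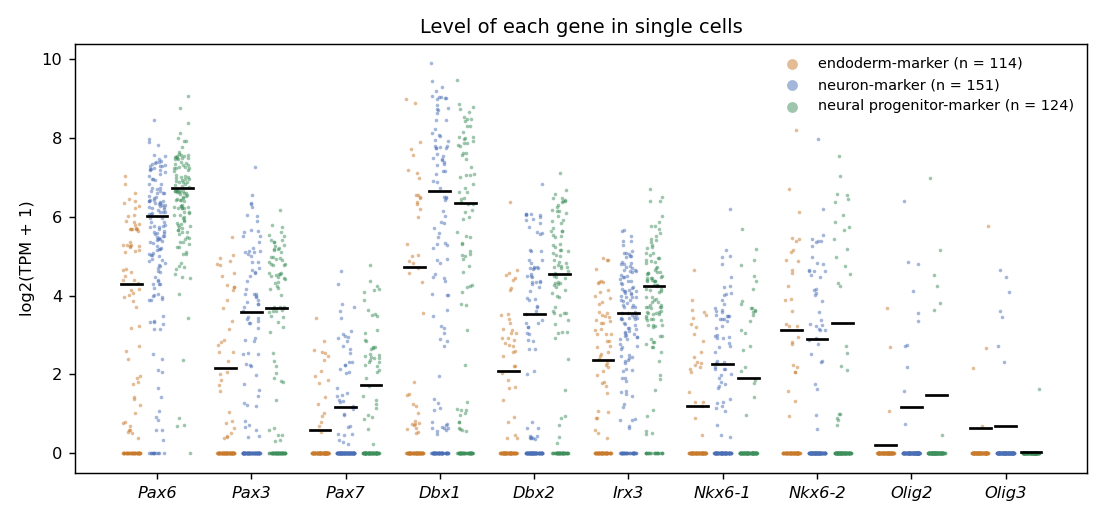
Level of each gene in every cell, as log2(TPM + 1), in endoderm-marker, neuron-marker and progenitor-marker cells. Each point is a cell and the black line is the class mean TPM put on the same scale; Dbx1 reaches the highest levels and also has cells near 1 TPM, and the Pax6 mean is 18.6 TPM in endoderm-marker, 64.1 TPM in neuron-marker and 105.1 TPM in progenitor-marker cells.

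Nkx6-1, Nkx6-2 and Olig2 are the ventral genes of the list. Nkx6-1 and Nkx6-2 encode homeodomain repressors of the ventral progenitor bands, and Olig2 encodes the bHLH factor that defines motor neuron progenitors and later acts in oligodendrocyte precursors. The windows before the starts of Nkx6-1 and Olig2 are shown because Olig2 was found mostly in cells with Nkx6-1. They lie at chr5:101664712-101664961 on the minus strand and chr16:91225300-91225549 on the plus strand, with the same source, direction and capitals as above.

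Nkx6-1: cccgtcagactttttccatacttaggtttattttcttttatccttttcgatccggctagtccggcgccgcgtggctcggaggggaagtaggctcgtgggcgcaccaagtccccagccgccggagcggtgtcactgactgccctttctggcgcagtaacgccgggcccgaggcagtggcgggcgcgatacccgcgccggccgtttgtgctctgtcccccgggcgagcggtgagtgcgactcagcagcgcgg
Olig2: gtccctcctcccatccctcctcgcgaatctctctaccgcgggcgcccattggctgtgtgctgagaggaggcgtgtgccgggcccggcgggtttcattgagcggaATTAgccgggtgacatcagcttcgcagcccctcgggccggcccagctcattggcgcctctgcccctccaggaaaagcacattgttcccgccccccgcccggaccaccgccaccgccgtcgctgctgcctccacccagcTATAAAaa

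The Olig2 window holds 1 TAAT, written as its reverse complement ATTA, and 1 TATAAA close to the start, and the Nkx6-1 window holds none of the motifs searched. Nkx6-1, on chromosome 5 (101659184 to 101664711), was detected in 26.1% (21.8 to 30.6) of cells, at 1.12 to 72.4 TPM with a median of 7.26 TPM. Of the 10 genes it alone had a share in neuron-marker cells whose interval lay above that of progenitor-marker cells, with 19.3% (12.5 to 27.7) of endoderm-marker, 37.1% (29.4 to 45.3) of neuron-marker and 20.2% (13.5 to 28.3) of progenitor-marker cells. Within the progenitor-marker class the share was the same in both column sets, 20.3% in set 1 and 20% in set 2. Over all cells the shares were 20.98% (15.8 to 26.9) in set 1 and 32.4% (25.6 to 39.8) in set 2, with intervals that overlap narrowly. Pancreatic endocrine cells also use Nkx6-1 and Pax6, and of 8 such markers 2 reached 10% of progenitor-marker cells with Nkx6-1 and 1 of those without it. The summed level of the list had a median of 15.3 TPM (0 to 90.4) with Nkx6-1 and 17.7 TPM (0 to 71.95) without it. Pdx1, Ins1, Ins2, Gcg and Ptf1a were in no cell with Nkx6-1. Of these, Pdx1, Ins2 and Gcg were in no progenitor-marker cell at all, and Ins1 and Ptf1a were in 0.806% and 6.45% of the class.

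Nkx6-2, on chromosome 7 (139579376 to 139582797), was detected in 89 cells, 22.1% (18.1 to 26.5), at 1.01 to 293.4 TPM with a median of 21.3 TPM. It was as common in endoderm-marker cells, at 24.6% (16.98 to 33.5), as in neuron-marker cells, at 25.2% (18.5 to 32.9). Progenitor-marker cells had 17.7% (11.5 to 25.6). The intervals of endoderm-marker and neuron-marker cells also overlapped for Pax7, Dbx2, Olig2 and Olig3. Inpp5a overlaps Nkx6-2 and is in the table, so reads from the overlapping stretch may not be told apart without strand. Olig2, on chromosome 16 (91225550 to 91228677), was detected in 20 cells, 4.96% (3.06 to 7.56), at 1.10 to 124.2 TPM with a median of 12.4 TPM. Of the Olig2 cells, 3 were endoderm-marker, 10 neuron-marker, 6 progenitor-marker and 1 unclassed. The Olig2 shares of the column sets were 2.68% (0.989 to 5.74) in set 1 and 7.82% (4.34 to 12.8) in set 2.

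The 6 progenitor-marker cells with Olig2 can be given in full. Olig2 stood at 124.2, 34.3, 21.9, 18, 12.9 and 11.4 TPM in these cells, and Nkx6-1 in the same order at 11, 11.2, 7.71, 0.97, 1.70 and 5.12 TPM. Pax6, in that order, stood at 4.16, 47.6, 185.3, 0, 0.87 and 48.05 TPM, and Dbx2 at 0, 0, 51.5, 0.87, 0 and 8.65 TPM. Dbx1 was at 60.2 TPM in the last of these cells and at 0 TPM in the others. Pax3, Pax7, Nkx6-2 and Olig3 were at 0 TPM in all 6. Nkx6-1 thus reached the detection level in 5 of the 6 and missed it narrowly in the other, while the dorsal genes were listed at 0. The 6 cells had a median of 5507 genes above 0, against 6510 in those without Olig2, and Olig2 was detected in 9.52%, 4.88% and 0% of the lowest, middle and highest tercile by that number, where Pax3 and Pax7 had the opposite order. The part of gene number in the absence of Pax3 and Pax7 was not tested. Nkx6-1 was detected in 83.3% (35.9 to 99.6) of these cells and in 16.9% (10.7 to 24.96) of those without Olig2. Over all cells Nkx6-1 and Olig2 met in 16 cells, against 5.21 from the product of the shares, a ratio of 3.07. Irx3, which borders Olig2 in the neural tube, was at 21.6 and 11.97 TPM in 2 of the 6 cells and at 0 TPM in the other 4. Of 8 oligodendrocyte precursor genes 3 reached 10% of the cells with Olig2 and 2 of those without it, with summed levels of 0 to 215.02 and 0 to 77.5 TPM and a median of 0 TPM on both sides, and Pdgfra, Sox10, Cspg4, Mag and Gpr17 were in 0 of the 6 cells. None of the genes absent from the 6 cells exceeded 4.03% of the progenitor-marker class. The part of oligodendrocyte precursor genes in the Olig2 result was not tested.

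Co-detection was examined for all 45 pairs of the 10 genes in the progenitor-marker class. The count of cells with both genes was divided by the count that the product of their shares gives, and a pair was called more often together at a ratio of 1.5 or above and less often at its inverse or below, where the product gave at least 5 cells. Of the 45 pairs 28 met that minimum, and 1 was called more often, 6 less often and 21 neither. Over all gene pairs in the same cells that met the minimum, 0.964% were called more often and 0.637% less often. Genes in nearly every cell cannot reach the bounds, and among pairs whose genes were both in 10% to 60% of the cells the shares were 3.737% and 1.999%. Of the member pairs 14 fell in that band, with the same 1 and 6 calls.

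The pair found more often together was Pax3 and Pax7, in 31 cells against 19 from the shares, a ratio of 1.63. Pax7 was detected in 50% (37.02 to 62.98) of the cells with Pax3 and in 11.3% (4.66 to 21.9) of those without it. Its mean was 3.89 TPM with Pax3 and 0.722 TPM without it. Seen from the other side, 31 of the 38 Pax7 cells also held Pax3. Of the terciles by genes above 0, the highest alone met the minimum of 5 cells from the shares for this pair, and its ratio was 1.16 (18 against 15.6 cells), inside the bound. It was also just inside it in set 1, at 1.49, and with any value above 0 counted as detection, at 1.48. Set 2 met the minimum only with its copies of set 1 cells included, at 1.83. By these rules the pair was thus not called in any tercile or in set 1. Below the minimum, its ratio was 2.50 in the lowest tercile (5 against 2 cells) and 1.74 in the middle tercile (8 against 4.61 cells). In the distinct cells of set 2 it was 1.94 (7 against 3.6 cells).

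All 6 pairs found less often together joined a class I gene with Nkx6-1 or Nkx6-2. Pax7 and Nkx6-1 met in 2 cells against 7.66 from the shares, a ratio of 0.26. Pax3 and Nkx6-1 met in 5 cells against 12.5, a ratio of 0.40. The other ratios were 0.44 for Pax7 and Nkx6-2 (3 against 6.74 cells), 0.55 for Pax3 and Nkx6-2 (6 against 11 cells), 0.55 for Dbx2 and Nkx6-1 (8 against 14.5 cells) and 0.58 for Dbx1 and Nkx6-1 (8 against 13.7 cells). No pair of class I genes and no pair with Irx3 was among the 6, and Irx3 with Nkx6-1 stood at 0.85 (17 against 19.96 cells). Pax6 with Olig2 stood at 0.69 (4 against 5.81 cells), just inside the bound.

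**Figure D3:**
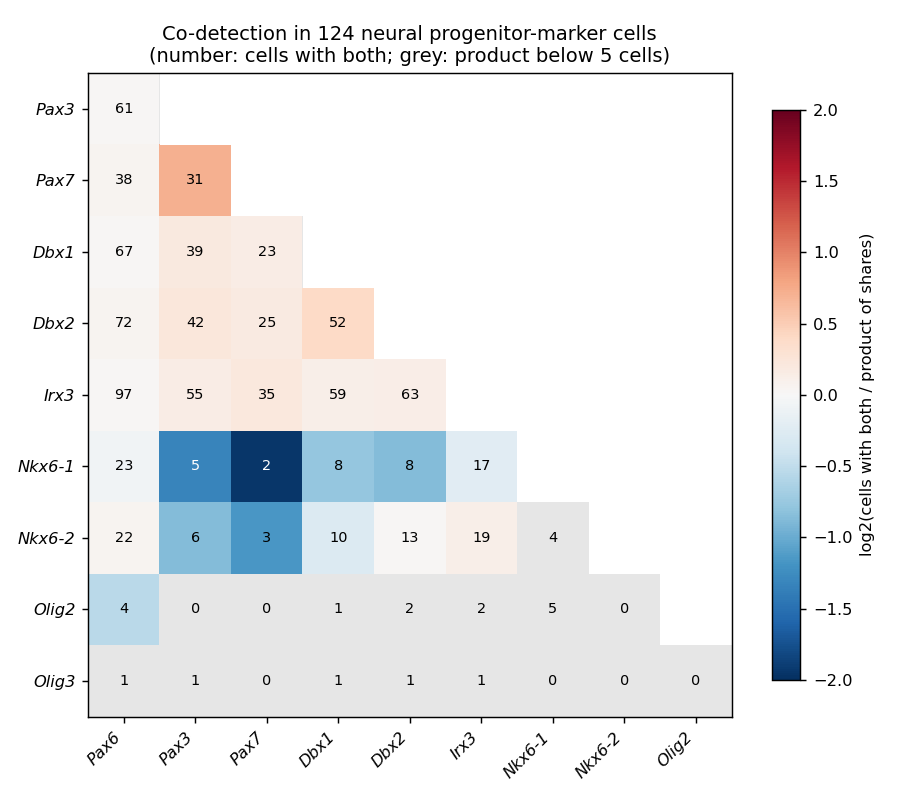
Co-detection of the 10 genes in the progenitor-marker cells. Each square gives the number of cells with both genes and its colour the log2 ratio of that number to the product of the shares, with grey where the product is under 5 cells; Pax3 with Pax7 is red at 31 cells, and the rows of Nkx6-1 and Nkx6-2 are blue against Pax3 and Pax7.

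For Pax3 and Nkx6-1 the same cells can also be given as shares and mean levels. The shares restate the counts above, and the means include cells at 0 TPM, so neither is separate support. Nkx6-1 was detected in 8.06% (2.67 to 17.8) of the 62 cells with Pax3 and in 32.3% (20.9 to 45.3) of the 62 without it. Its mean was 0.528 TPM in cells with Pax3 and 4.98 TPM in cells without it. For Pax7, the Nkx6-1 shares were 5.26% (0.644 to 17.7) of 38 cells with it and 26.7% (17.8 to 37.4) of 86 without it. As given above, cells with Pax3 or with Pax7 had more genes above 0 than cells without. The ratio for Pax3 and Nkx6-1 was 0.34 in set 1 and 0.47 in the highest tercile (3 against 6.37 cells), and the other terciles did not reach 5 cells from the shares. In the 14 settings of the progenitor-marker class that reached that minimum it ranged from 0.30 to 0.54, and that for Pax7 and Nkx6-1 ranged from 0.14 to 0.35 in 11 such settings. With detection limited to the 4000 highest genes of a cell, which also redrew the class with fewer cells, 0 pairs of the 10 genes were called in it. Over all distinct cells Pax3 and Nkx6-1 met in 31 cells against 41.7, a ratio of 0.74, which is inside the bound, and Pax7 and Nkx6-1 in 14 against 22.7, a ratio of 0.62.

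The separation was not complete. Pax3 or Pax7 stood beside Nkx6-1 in 6 progenitor-marker cells, which had a median of 7282 genes above 0, against 6812 in the 63 cells with Pax3 or Pax7 alone and 5904 in the 19 with Nkx6-1 alone. In these 6 cells the median of Nkx6-1 was 8.20 TPM and its highest value 13.5 TPM, and the median of Pax3 was 6.53 TPM and its highest value 22.3 TPM. The corresponding medians were 21.4 TPM for Pax3 in the cells with Pax3 or Pax7 alone and 11.9 TPM for Nkx6-1 in the cells with Nkx6-1 alone. Of the 6 cells 0 held 3 or more endoderm genes. Whether some of these captures held more than 1 cell was not tested.

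Of the other 4 less frequent pairs, 3 had ratios inside the bound in some settings that met the minimum. Dbx1 and Nkx6-1 ranged from 0.38 to 0.70 in 13 such settings, and gave 0.64 in set 1. Dbx2 and Nkx6-1 ranged from 0.40 to 0.74 in 14, with 0.74 in set 1 and 0.70 in the highest tercile. Among the distinct cells of set 2 that ratio was 0.20 (1 cell against 5). Pax3 and Nkx6-2 ranged from 0.45 to 0.76 in 13, with 0.64 in set 1. Pax7 and Nkx6-2 ranged from 0.38 to 0.61 in 11, past the bound in each, with 0.58 in set 1. No tercile reached 5 cells from the shares for the pairs of Nkx6-2 with Pax3 and Pax7 or for Dbx1 and Nkx6-1. The pairs of Nkx6-2 with Dbx2, at 1.02, and with Irx3, at 1.08, were close to the product of the shares.

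Outside the progenitor-marker class the pairs were more mixed. In the neuron-marker cells, Pax3 and Pax7 were again called more often, with 28 cells against 13.6 and a ratio of 2.06, and 0 of 33 pairs were called less often. Of all gene pairs that met the minimum in these cells, 1.18% were called more often and 0.674% less often. There Pax3 and Nkx6-1 met in 18 cells against 23.7, a ratio of 0.76. Nkx6-1 and Nkx6-2 met in 21 neuron-marker cells against 14.1, a ratio of 1.49, and in 4 progenitor-marker cells against 4.44. The difference between the classes in these ratios was not tested. Over all distinct cells 37 pairs met the minimum, of which 3 were called more often and 2 less often, beside 2.17% and 1.40% of all gene pairs. The 3 were Pax3 with Pax7, Dbx1 with Olig3 and Nkx6-1 with Olig2, and the 2 were Pax3 with Olig2 (3 against 7.94 cells) and Pax7 with Nkx6-1.

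Grouping the genes by band shows the combinations in the progenitor-marker cells. The most frequent was Pax3 or Pax7 together with Dbx1 or Dbx2 and without Nkx6-1, Nkx6-2 or Olig2, in 48 cells (38.7%, 30.1 to 47.9). Nkx6-1, Nkx6-2 or Olig2 alone was found in 17 cells (13.7%, 8.19 to 21.04), and with Dbx1 or Dbx2 but no Pax3 or Pax7 in 15 cells (12.1%, 6.93 to 19.2). Dbx1 or Dbx2 alone was also found in 15 cells, Pax3 or Pax7 alone in 9, all 3 kinds together in 10, none in 8, and the dorsal with the ventral genes but neither Dbx gene in 2. The 10 cells with all 3 kinds had a median of 7432.5 genes, the highest of the 8 combinations, and the 17 cells with ventral genes alone had 5641, the lowest.

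**Figure D4:**
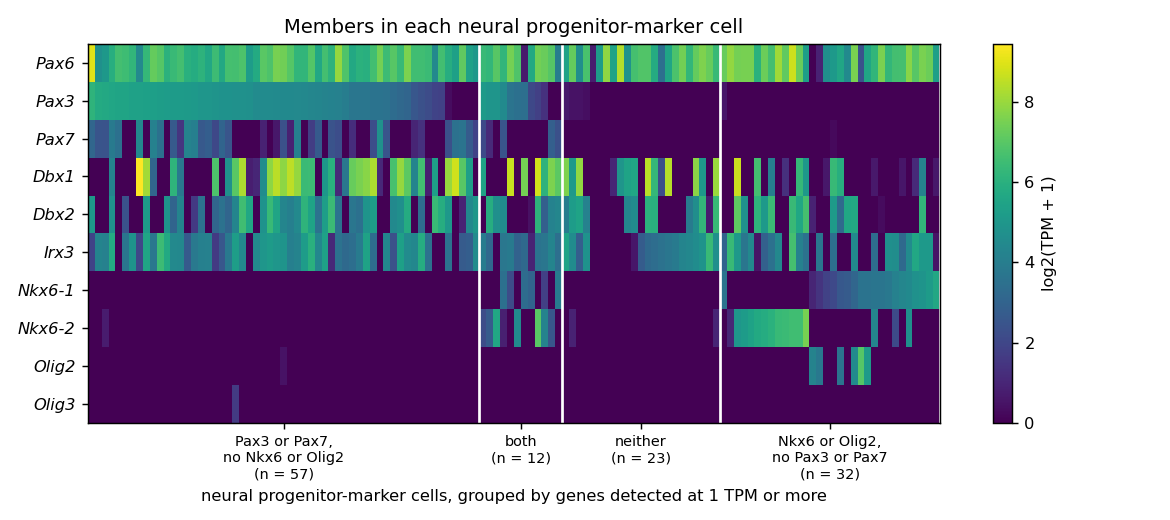
The 10 genes in each progenitor-marker cell, with cells as columns and colour giving log2(TPM + 1). Cells are grouped into 57 with Pax3 or Pax7 and no Nkx6 gene or Olig2, 12 with both kinds, 23 with neither and 32 with an Nkx6 gene or Olig2 and no Pax3 or Pax7; Pax6 and Irx3 run through all 4 groups, and all 6 cells with Olig2 stand in the last.

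Levels in neuron-marker cells were set against those in progenitor-marker cells by the ratio of mean TPM, with 2-fold as the bound. Of the 10 genes, 9 met the filter of detection in 10 cells of the 2 classes, and Olig3 did not. Dbx2 alone passed the bound and was lower, at 10.6 TPM in neuron-marker and 22.3 TPM in progenitor-marker cells, a ratio of 0.48 (0.53 in set 1 and 0.41 in set 2). Of 12499 genes compared, 4.50% were lower and 13.9% higher by this rule. Pax6 had a ratio of 0.61 (64.1 against 105.1 TPM), Irx3 0.61 (10.8 against 17.8 TPM), Pax7 0.54 (1.25 against 2.31 TPM), Olig2 0.71, Nkx6-2 0.72 and Pax3 0.93 (10.9995 against 11.8 TPM). Dbx1 stood at 1.23 (98.96 against 80.4 TPM) and Nkx6-1 at 1.38 (3.804 against 2.76 TPM). The column sets differed for 4 of these genes, with ratios in set 1 and set 2 of 0.38 and 1.12 for Pax7, 1.16 and 0.50 for Olig2, 0.97 and 0.50 for Nkx6-2 and 1.02 and 1.91 for Nkx6-1, so that Pax7 and Olig2 lay on opposite sides of 1 in the sets. The median ratio was 0.71 over the 9 genes and 1.03 over all genes. The Dbx2 call was lost when the set 2 column of each near-copy pair was kept instead, in set 1 alone Pax7 was lower and Dbx2 inside the bound, and when neuron-marker cells with 8 or more progenitor genes were left out, Pax6, Pax7, Dbx2 and Irx3 were all lower.

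In endoderm-marker cells 7 of the 10 genes were at least 2-fold lower than in progenitor-marker cells, and 14.5% of 12584 genes were lower and 19.7% higher by the same rule. Olig2 and Olig3 did not meet the filter. The ratios were 0.15 for Dbx2 (3.23 against 22.3 TPM), 0.18 for Pax6 (18.6 against 105.1 TPM), 0.22 for Pax7, 0.23 for Irx3, 0.29 for Pax3, 0.32 for Dbx1 (25.6 against 80.4 TPM) and 0.48 for Nkx6-1. For Pax7 and Nkx6-1 the call held in set 1 alone, with ratios of 0.13 in set 1 and 0.51 in set 2 for Pax7 and 0.34 and 0.67 for Nkx6-1. Nkx6-2 was not lower, at 7.72 TPM in endoderm-marker and 8.92 TPM in progenitor-marker cells, a ratio of 0.87 (0.43 in set 1 and 0.99 in set 2). The median ratio of all genes was 0.92. Without the endoderm-marker cells that also hold 8 or more progenitor genes, 7 genes were again lower. Endoderm-marker cells were chosen by their endoderm genes and not by a lack of neural genes, and 31 of them also met the minimum for neuron genes.

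Other dorsoventral genes were set beside the 10, and 180 pairs of a member and a partner were computed in the neuron-marker and progenitor-marker cells together. Pax3 went with further dorsal genes. Msx3, a dorsal homeobox gene, was detected in 53.97% (44.9 to 62.9) of cells with Pax3 and in 10.7% (6.26 to 16.9) of those without it, and Msx1 in 46.03% (37.1 to 55.1) and 14.1% (8.94 to 20.7). Ptf1a, which directs dorsal inhibitory neurons, was seen in 8.73% (4.44 to 15.1) of cells with Pax3 and 0.671% (0.0170 to 3.68) of those without it, and Gsx1 in 7.94% (3.87 to 14.1) and 1.34% (0.163 to 4.76). These genes were thus seen mainly on the Pax3 side, where cells also had more genes above 0.

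Motor neuron genes and ventral interneuron genes were set beside Nkx6-1 and Olig2. Isl1, a homeobox gene of motor neurons and of a dorsal sensory interneuron class, was detected in 24.7% (15.8 to 35.5) of cells with Nkx6-1 and in 6.70% (3.62 to 11.2) of those without it. In cells with Olig2 it was found in 9 of 16, 56.3% (29.9 to 80.2), and in 9.27% (6.03 to 13.5) of those without it. Mnx1, which is needed for motor neuron identity, was seen in 14.8% (7.90 to 24.4) of cells with Nkx6-1 and 4.12% (1.80 to 7.96) of those without it, and in 18.75% (4.05 to 45.6) of cells with Olig2 and 6.56% (3.87 to 10.3) of those without it, and the intervals overlap in both cases. The interneuron genes Evx1 and En1 were not set apart by Nkx6-1, with 7.41% (2.77 to 15.4) and 6.19% (3.24 to 10.6) for Evx1 and 7.41% (2.77 to 15.4) and 7.22% (4.00 to 11.8) for En1 with and without it, and both were in 0 of the 16 cells with Olig2. The shares of Isl1 and Mnx1 were lower in cells with Dbx1, with Isl1 in 5.37% (2.35 to 10.3) of cells with Dbx1 and 19.8% (13.3 to 27.9) of those without it, and Mnx1 in 2.68% (0.736 to 6.73) and 12.7% (7.44 to 19.8). These splits pool 2 classes. Isl1 was in 19.9% of neuron-marker and 2.42% of progenitor-marker cells, and Mnx1 in 12.6% and 0.806%. Nkx6-1 was likewise more frequent in neuron-marker cells. The part of class in the contrasts with Nkx6-1 and Olig2 was not tested.

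Evx1, the homeobox gene of V0 interneurons that arise from Dbx1 progenitors, did not follow Dbx1. It was detected in 7.38% (3.74 to 12.8) of cells with Dbx1 and 5.56% (2.26 to 11.1) of those without it, and in 1.55% (0.188 to 5.49) of cells with Dbx2 and 10.96% (6.40 to 17.2) of those without it. Evx1 was found in 11.9% (7.22 to 18.2) of neuron-marker cells and in 0 progenitor-marker cells, where the exact interval reaches 2.93%. Of the 8 neural cells with Olig3, 4 held Evx1 (50%, 15.7 to 84.3), against 5.24% (2.90 to 8.64) of the others. These splits also pool the 2 classes. Dbx2 was in 37.7% of neuron-marker and 58.1% of progenitor-marker cells, and 7 of the 8 Olig3 cells were neuron-marker cells. The part of class in the Evx1 contrasts was not tested.

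**Figure D5:**
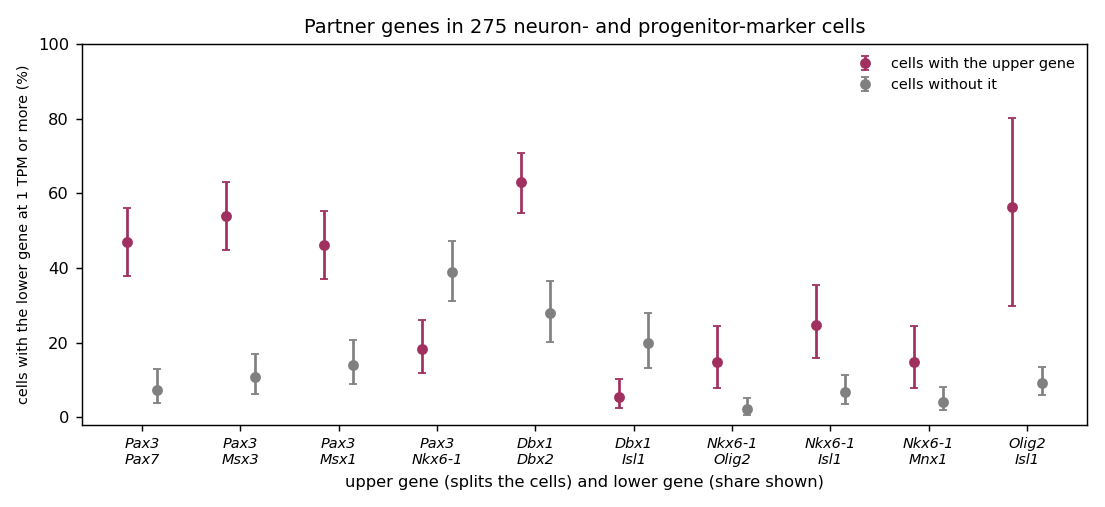
Share of cells with the lower-named gene, in percent, among the neuron-marker and progenitor-marker cells that do (left point) or do not (right point) hold the upper-named gene. Bars are exact 95% intervals for counting error only; Pax7, Msx3 and Msx1 are more frequent with Pax3, Nkx6-1 is less frequent with it, and Isl1 is more frequent with Nkx6-1 and Olig2 and less frequent with Dbx1.

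The signals that pattern the neural tube were looked for over all distinct cells, endoderm-marker cells included. Shh, the hedgehog ligand of the floor plate, was detected in 3 cells, of which 1 was endoderm-marker, 1 neuron-marker and 1 progenitor-marker, and Nkx2-2, the marker of the most ventral progenitors, in 8. Foxa2, a floor plate and endoderm gene, was detected in 84.2% of endoderm-marker cells (76.2 to 90.4), where it was used to define the class, and in 4.03% (1.32 to 9.16) of progenitor-marker cells. Lmx1a and Gdf7, roof plate genes, were in 2 and 0 cells, and the exact interval for 0 cells reaches 0.911%. Of 8 floor plate and ventral midline genes 3 reached 10% of cells (Foxa2, Ntn1 and Spon1), of 15 roof plate and dorsal genes 4 (Msx1, Msx2, Msx3 and Bmp7), and of 16 dorsal and intermediate progenitor genes 10, led by Irx5 at 69.2%, Prdm8 at 58.1% and Neurog1 at 51.1%. As given above, most of the 13582 genes detected in 10 or more cells also reached 10%. Msx2 was in 28.3% of all cells, but in 15.3% of progenitor-marker and 15.2% of neuron-marker cells.

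Of 10 genes that receive or report hedgehog signalling, 8 reached 10% of cells, as did most of the 13582 genes detected in 10 or more cells. Ptch1, the hedgehog receptor and a target of the pathway, was detected in 63.6% (55.4 to 71.2) of neuron-marker and 79.8% (71.7 to 86.5) of progenitor-marker cells, and the target gene Gli1 in 7.95% (4.17 to 13.5) and 12.9% (7.56 to 20.1). Gli1 was found in 25% (14.7 to 37.9) of neural cells with Nkx6-2 and 6.05% (3.26 to 10.1) of those without it. With Nkx6-1 the order was reversed, with 4.94% (1.36 to 12.2) and 12.4% (8.09 to 17.8), and the intervals overlap. Class I genes were divided as well. Gli1 was in 15.5% (9.73 to 22.9) of neural cells with Dbx2 and 5.48% (2.40 to 10.5) of those without it. With and without Irx3 the shares were 12.6% (8.37 to 17.9) and 2.94% (0.358 to 10.2). Gli1 was also more frequent with Pax6 and Dbx1 and less frequent with Pax3 and Pax7. The intervals overlap for all of these class I genes. In endoderm-marker cells all 10 hedgehog list genes were at least 2-fold lower than in progenitor-marker cells, and in neuron-marker cells 4 were lower and 0 higher. Of all genes compared, 14.5% were lower in endoderm-marker cells, and 4.50% were lower and 13.9% higher in neuron-marker cells. The drop in endoderm-marker cells was not particular to hedgehog genes. There 9 of the 14 dorsal and intermediate progenitor genes that met the filter were also lower, and 0 were higher.

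Genes whose level followed a member most closely over the progenitor-marker cells were ranked by Pearson r of log2(TPM + 1), among genes in at least 10% of these cells. The values describe cells that share a culture and differ in depth. For Pax3 the 3 highest were Msx3 (0.58), Pax7 (0.51) and Prdm13 (0.48), the last a dorsal interneuron progenitor gene, and the lowest was Sfrp2 (-0.42), a secreted Wnt modulator. For Pax7 they were Pax3, Mpped2 (0.46) and Msx3 (0.46), with Cotl1 lowest at -0.43. For Nkx6-1 they were Prdm8 (0.38), Pde7a (0.35) and Ackr3 (0.33), and the lowest was Nrep (-0.52). Nrep stood at 0.38 with Dbx2, on the opposite side, and Prdm8 at -0.32 with Dbx1.

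Pax6 had Sem1 (0.46) and Trim2 (0.42) highest and Fras1 (-0.46) lowest. For Nkx6-2 the highest was Id4 (0.38), a repressor of bHLH factors, followed by Nexn and Ass1 (both 0.37). Irx3 had Wdr48 (0.41), Sgce (0.39) and Rbm7 (0.38), and after Dbx1 the genes nearest Dbx2 were Egfl7 (0.44) and Nrep. Olig2 rested on 6 cells, and its 2 highest genes, Wdr66 (0.39) and Zfp319 (0.39), were at 0.74 and 0.69 in set 2 but at -0.08 and 0.00 in set 1. Among the members themselves Pax6 followed Irx3 at 0.32 and ran against Olig2 at -0.39, and Pax3 ran against Nkx6-1 at -0.35.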

How the data were processed

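Single cells were sequenced, 1 per sample, all of 1 group, and the authors deposited 1 table of TPM values, per its header. The submitters' processing notes name STAR, RSEM and the mm10 build, with no versions, and the library chemistry has no molecular identifiers. The deposited TPM columns sum to 54.2% to 95.1% of the full TPM total, so the table holds a part of each library, and depth in reads is unknown. Columns with at least 2000 genes above 0 and a mitochondrial share of at most 20% were kept, and of columns with r of at least 0.93 the set 2 copy was left out. Detection was set at 1 TPM, r used a pseudocount of 1 TPM, and fold changes are ratios of mean TPM over genes detected in 10 or more cells. Positions and promoters came from RefSeq (GRCm38.p6), in which 20780 of the table's 21973 symbols were matched. The named genes are the 10 members, the up to 3 highest and 2 lowest correlates of each at an r of 0.3 or beyond, list genes in at least 10% of cells, and fixed partner genes. The members and lists were chosen with earlier results of these data known. A few further genes are named as counts of list members at 0. No p-values were computed, since the cells are 1 sample, and the rules were tested on simulated data. Alternatives concerned the detection level, near-copies, sets, class minimums, filters, terciles by gene number and scaling. Python 3.11.15 with numpy 2.4.6, pandas 2.3.3, scipy 1.17.1 and matplotlib 3.10.9 was used. Results for a few listed genes are not reported here.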

Additional observations from a re-analysis of the deposited data

How the results depend on the processing

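No paired analysis was possible because all cells belong to 1 group, and there were no replicates to leave out. The alternatives on classes joined or trimmed and the ratio bound of 2 were chosen after seeing the data. Detection among the 4000 highest genes of a cell gave 5 members in at least 10% of cells against 8, 0 pairs called in the progenitor-marker class against 7, and 2 members lower in neuron-marker cells against 1. The count of called pairs, 7 in the main setting, was 3 with set 2 alone, its copies included, and 3 at a ratio bound of 2. It was 1, 0 and 1 in the lowest, middle and highest terciles by gene number. The call in the lowest tercile was Pax3 with Dbx2, more often at 1.575, which was not among the 7. That in the highest tercile was Pax3 with Nkx6-1. In the distinct cells of set 2, Dbx2 with Nkx6-1 alone of the 7 was called. Calls new there were Pax3 with Dbx2, Pax7 with Dbx2 and Irx3 with Nkx6-1. Over all distinct cells 5 pairs were called, and 8 with all kept columns or at 5 TPM. The single member lower in neuron-marker cells became 0 with all kept columns or with the set 1 copies left out, and 4 without neuron-marker cells with 8 or more progenitor genes. The cause of these changes was not tested. Of the 45 pairs, 28 met the minimum of 5 cells in the progenitor-marker class, 27 in its set 1 cells and 18 in its distinct set 2 cells. The Pax7 and Nkx6-2 ratio turned round to 1.12 in the highest tercile, where the shares give only 2.68 cells. The count of members lower in endoderm-marker cells ranged from 5 to 8. Of the values for single genes and pairs, 46 moved, 1 reversed and the others stayed near the main value. Rare genes such as Olig3 are limited by the number of cells.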

Other observations

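Genes of postmitotic neuron classes that arise from these progenitor bands were uneven. In neuron-marker cells Lhx1 was detected in 70.2%, Lhx5 in 51.7%, Pax2 in 29.1%, Lhx3 in 29.1%, Lbx1 in 21.2% and Isl1 in 19.9%, against 15.3%, 6.45%, 3.23%, 4.84%, 3.23% and 2.42% of progenitor-marker cells. These genes belong to dorsal and ventral interneurons and, for Lhx3 and Isl1, also to motor neurons. Not all genes of these lists were more frequent in neuron-marker cells. Foxp2, listed with En1 for V1 neurons, was in 41.7% of neuron-marker and 50.8% of progenitor-marker cells. Lhx2, listed for dorsal neurons, was in 6.62% and 8.87%. En1 was in 13.2% (8.28 to 19.7) of neuron-marker cells, and Sim1, the V3 gene, in 1 cell. The neuron-marker class was chosen by other neuron genes, so its higher levels of such genes describe the class.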
